A study of Mus musculus with 3 samples.

Results

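The genes described here are 10 members of Toll-like receptor signalling and of the inflammatory cytokine output it controls: Tlr2, Tlr4, Myd88, Ticam1, Nlrp3, Casp1, Tnf, Il1b, Il6 and Il10. They were chosen by name and all 10 were found among 21887 protein-coding gene records of mm10. For each, the H3K9ac summits that lay inside its record or within 20 kb of either end were collected, which gave 17 of the 33248 summits of the library labelled young HSC, 41 of the 108787 of the library labelled old HSC and 17 of the 45386 of the library labelled old HSC ABC. H3K9ac, acetylation of lysine 9 of histone H3, is enriched at active promoters and enhancers. It was mapped by CUT&Tag, in which an antibody directs a transposase to the marked chromatin so that the surrounding DNA is cut and tagged. A summit is the single base of highest signal in a called peak.

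Each group was 1 library from 50000 sorted haematopoietic stem cells (HSCs) of wild-type mouse bone marrow. The ages, 2 to 4 months for young and 18 to 24 months for old, were read from the protocol and from the letter that opens each title. The old HSC ABC library came from old cells with an ABC label that is not spelled out. The names carried inside the peak lists did not match these labels: the list labelled young HSC carried oHSC-H3K9ac-1, that labelled old HSC carried oHSC-ABC-H3K9ac-1, and that labelled old HSC ABC carried oHSC-H3K9ac-2. Groups follow the labels, and every direction holds for the libraries as labelled; by the names inside, no list is a young one. With 1 library per group no test was possible, so no p-value is given and each difference is between libraries, not conditions. Read depth was unknown, and the score of a summit, read here as the −log10 of the peak caller's q-value, ranks summits only within its own list (rank 1 is the highest score). Because the lists differ in length up to 3.27-fold, counts were repeated on the 33248 highest-scoring summits of each, called equal-length lists.

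Toll-like receptors recognise microbial and damage-derived molecules and pass the signal through the adaptors encoded by Myd88 and Ticam1 to NF-kB, AP-1 and interferon regulatory factors, which switch on cytokine genes. Nlrp3 encodes the sensor of an inflammasome and Casp1 the protease that this complex activates to process the Il1b precursor. HSCs carry Toll-like receptors themselves, and inflammatory signals push them out of quiescence and towards myeloid output.

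A summit within 1 kb of either end of a gene record is called an end summit. Of the 10 members, 7 had an end summit called in the library labelled young HSC, 9 in that labelled old HSC and 4 in that labelled old HSC ABC, beside 41.9%, 56.9% and 43.6% of all protein-coding genes. Tlr2, Tlr4, Casp1 and Tnf had one in all 3 libraries, as did 36.3% of all genes. Il1b had none in any library. Il6 and Il10 had one in the library labelled old HSC alone, a pattern found in 11.6% of all genes. Myd88, Ticam1 and Nlrp3 had one in the young- and old-labelled libraries and none in the ABC-labelled one.

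**Figure D1:**
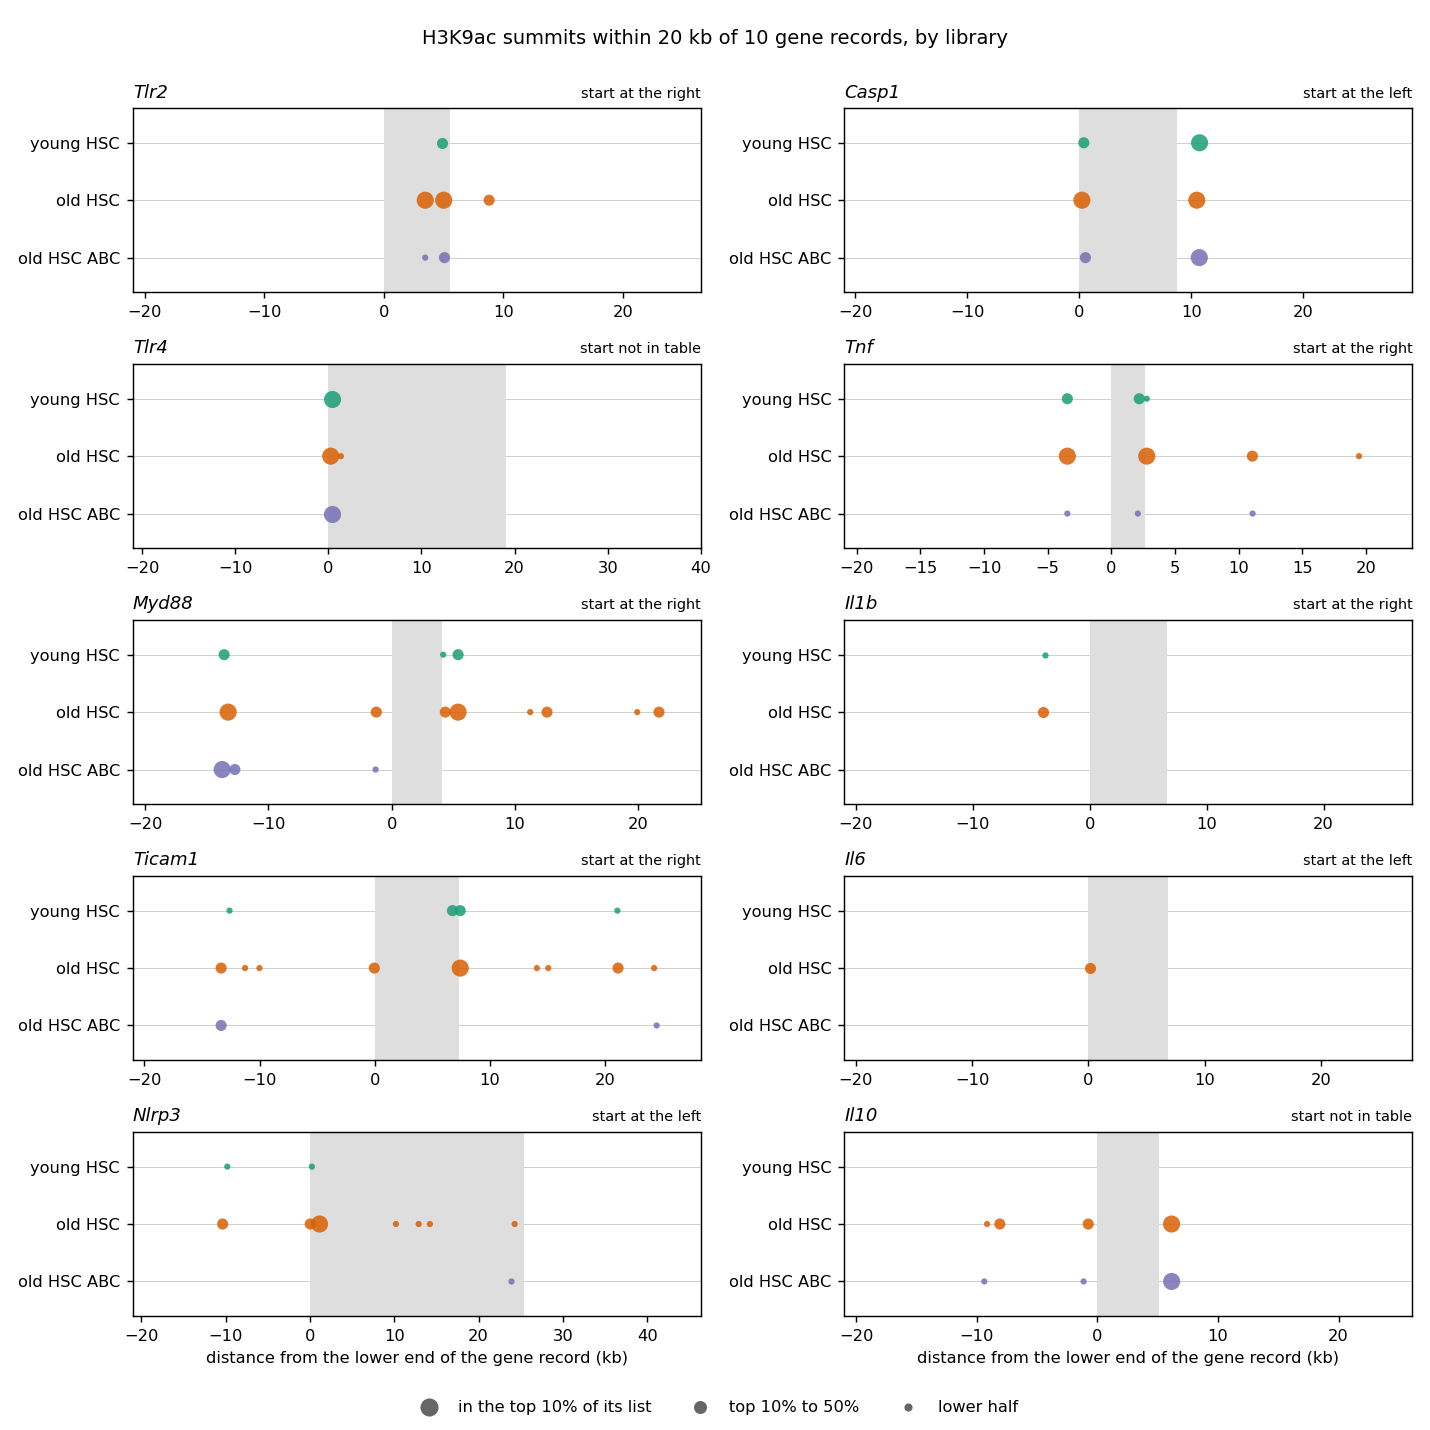
Summits around each of the 10 gene records, by library. The horizontal axis is the distance from the lower-coordinate end of the record in kb, grey marks the record, each point is 1 summit, and its size gives its place in its own list. Il6 has a single summit in its whole window, whereas Ticam1 and Myd88 have 9 and 8 in the old HSC row, most of them at neighbouring genes.

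Some window summits belonged to neighbours. In the list labelled old HSC, 12 of 41 lay inside a member's record and 5 lay outside but within 1 kb of its end. Of the rest, 14 lay in or within 1 kb of another protein-coding record, and 10 lay elsewhere. The same counts were 6, 3, 6 and 2 of 17 for young HSC and 6, 0, 6 and 5 of 17 for old HSC ABC. A summit anywhere in the window was found at 8, 10 and 8 of the 10 members in the libraries labelled young, old and ABC, beside 72.0%, 81.7% and 76.1% of all genes. Summit density in the 491 kb of member windows was 3.46, 8.34 and 3.46 per 100 kb, against 2.63, 7.36 and 3.39 over the windows of all genes. The median number of summits per window was lower for members, at 1.5, 3.5 and 2 per member against 2, 6 and 3 per gene over all genes. Unlike the densities, these medians are not scaled by window length.

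Tlr4 and Tlr2, the receptors, had the highest-ranking end summits of the members in the lists labelled young HSC and old HSC. Tlr4, the receptor for bacterial lipopolysaccharide (chromosome 4, 66827551 to 66846581), had its best end summit at 66827922 in the young-labelled list (score 22.3, rank 1215), at 66827806 in the old-labelled list (41.7, rank 2335) and at 66827919 in the ABC-labelled list (16.0, rank 2220). They lay 371, 255 and 368 bp inside the lower end of the record, so all 3 libraries marked the same end at nearly the same place. Among the genes with an end summit, Tlr4 took place 995 of 9172 in the young-labelled library, 2030 of 12457 in the old-labelled and 1769 of 9533 in the ABC-labelled. Only 1 further summit lay in its window, inside the record at 66828896 in the old-labelled list (3.98), and no list had a summit in the 20 kb on either side. The start of Tlr4 is not in the promoter table used.

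Tlr2, which senses bacterial lipoproteins together with Tlr1 or Tlr6 (chromosome 3, 83836272 to 83841824, minus strand), had end summits at 83841147 (young HSC, score 12.3, rank 4388), 83841286 (old HSC, 36.4, rank 3136) and 83841352 (old HSC ABC, 9.02, rank 6602). These lay 461, 322 and 256 bp downstream of the gene start at 83841608. A further site lay 2082 bp inside the same end, at 83839742 in the old-labelled list (16.7) and 1 base away at 83839741 in the ABC-labelled list (3.19). The young-labelled list had no summit there. The old-labelled list alone had another at 83845084, 3260 bp past the record (6.63).

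The 250 bases before the Tlr2 start are shown because they lie beside a site found in all 3 libraries. The sequence is from RefSeq (GRCm38.p6, minus strand, chr3:83841609-83841858). Capitals mark the match to the NF-kB motif.
Tlr2: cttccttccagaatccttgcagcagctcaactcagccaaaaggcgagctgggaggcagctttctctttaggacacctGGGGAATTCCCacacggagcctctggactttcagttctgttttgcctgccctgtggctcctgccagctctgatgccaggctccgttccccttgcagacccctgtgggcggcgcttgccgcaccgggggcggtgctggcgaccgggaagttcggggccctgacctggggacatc
The match lay 173 to 163 bases before the start. The NF-kB motif, searched on both strands, was present in 4.18% of 21263 such sequences of protein-coding genes. Tlr2 had 11 CG dinucleotides here, beside a median of 10.

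The adaptors differed from the receptors in the library labelled old HSC ABC. Ticam1, also called Trif, the adaptor of Tlr3 and of internalised Tlr4 (chromosome 17, 56269462 to 56276767, minus strand), had a summit at 56276868 in the old-labelled list (27.5, rank 5171) and at exactly the same base in the young-labelled list (6.48, rank 10436). That base is 101 before the gene start. The young-labelled list held another at 56276194 (7.58, rank 8704), 573 bp into the gene, and the old-labelled list one at 56269415 (8.58), 47 bp past the other end. The ABC-labelled list had no summit in the record. Its nearest lay 13332 bp past the lower end, within 1 kb of the neighbour Fem1a, and 17138 bp past the upper end, beside Arrdc5. The nearest of these was again at the same base, 56256130, as a summit of the old-labelled list (scores 6.16 for ABC and 14.5 for old). At Ticam1 the young- and old-labelled libraries thus marked the start and the ABC-labelled list held no call around it.

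Myd88, the adaptor of most Toll-like receptors (chromosome 9, 119335934 to 119340018, minus strand), had weak summits just before its start. They were at 119340103 in the young-labelled list (3.26, rank 23141), 85 bases before the start, and at 119340278 in the old-labelled list (6.78, rank 27394), 260 bases before it. Both lay within 1 kb of the Acaa1a record, which begins 1010 bp away on the opposite strand, so they cannot be assigned to Myd88 alone. Acaa1a, a peroxisomal thiolase gene, had stronger summits inside its own record at 119341312 (young HSC, 5.29) and 119341311 (old HSC, 15.4). The ABC-labelled list had neither site. Its nearest summit to Myd88, at 119334626 (2.90), lay 1308 bp past the far end of the gene, beside an old-labelled one at 119334682 (4.40). The highest-scoring summits in the Myd88 window were those at the neighbour Oxsr1, whose record ends 13250 bp away, present in all 3 lists (13.5, 29.3 and 11.5 for young, old and ABC).

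Of the inflammasome genes, Nlrp3 (chromosome 11, 59541569 to 59566955, plus strand) has a pair of starts in the promoter table, at 59541569 and 59542686. The old-labelled list had a summit 41 bp downstream of the first, at 59541610 (6.75, rank 27515), and a higher-scoring one 31 bp downstream of the second, at 59542717 (17.7, rank 9062). The second lay 1148 bp from the record end and so did not count as an end summit. The young-labelled list had 1 summit here, at 59541805 (3.30, rank 22917), 236 bp past the first start. The ABC-labelled list had none near either start: its only summit in the window, at 59565386 (3.03), lay 22700 bp downstream of the second start, 1569 bp from the far end. Across the record the old-labelled list held 6 summits, and the young- and ABC-labelled lists 1 each.

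Both upstream sequences of Nlrp3 are shown because the old-labelled summits sat just past each start (RefSeq, GRCm38.p6, plus strand, chr11:59541319-59541568 and chr11:59542436-59542685). Capitals mark a match to the NF-kB motif.
Nlrp3 first start: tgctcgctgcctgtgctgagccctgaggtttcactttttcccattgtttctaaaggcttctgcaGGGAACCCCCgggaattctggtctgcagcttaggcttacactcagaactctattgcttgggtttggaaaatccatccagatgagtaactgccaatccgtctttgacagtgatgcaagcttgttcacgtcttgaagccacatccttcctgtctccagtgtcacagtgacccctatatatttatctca
Nlrp3 second start: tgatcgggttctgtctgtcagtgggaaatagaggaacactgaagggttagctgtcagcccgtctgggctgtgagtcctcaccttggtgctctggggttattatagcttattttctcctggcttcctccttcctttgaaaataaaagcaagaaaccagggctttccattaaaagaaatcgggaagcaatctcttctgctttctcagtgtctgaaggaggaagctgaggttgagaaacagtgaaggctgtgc
Only the first held a match, 186 to 177 bases before the start, on the opposite strand. The upstream sequences had 4 and 3 CG dinucleotides.

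Casp1 (chromosome 9, 5298517 to 5307281, plus strand) had an end summit in every library: at 5298933 in the young-labelled list (8.12, rank 8057), at 5298760 in the old-labelled list (17.5, rank 9138) and at 5299075 in the ABC-labelled list (10.1, rank 5443). They lay 416, 243 and 558 bp downstream of the start. In the ABC-labelled list Casp1 ranked above Tlr2, and in the other lists below it. The neighbouring inflammatory caspase gene Casp4, whose record begins 1568 bp past Casp1, had higher-ranking summits than Casp1 in every list, at ranks 1010, 1786 and 1037 in the lists labelled young, old and ABC.

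**Figure D2:**
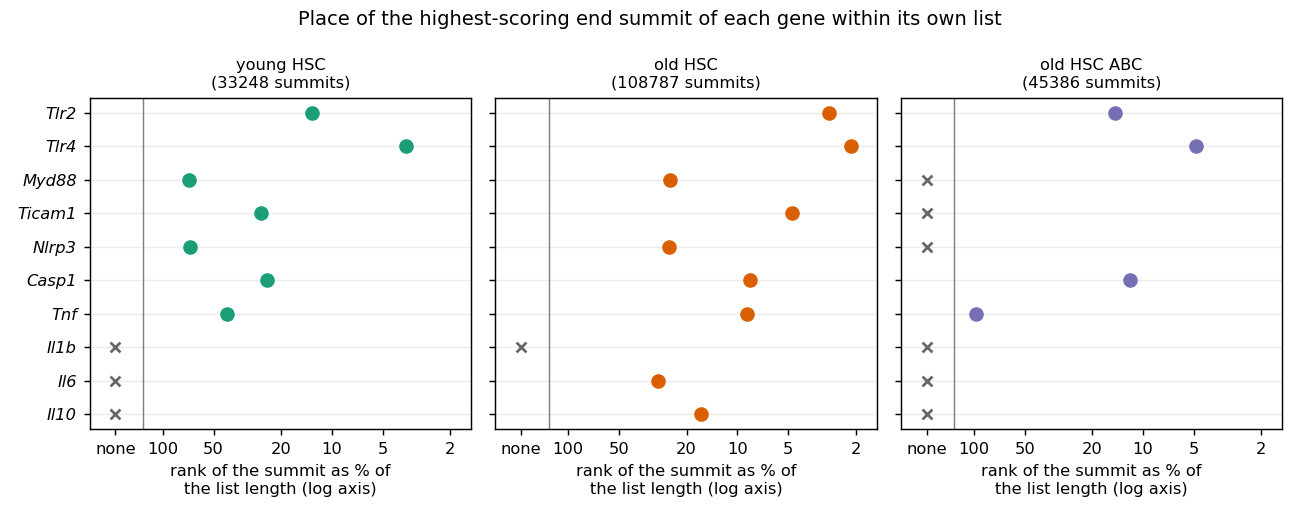
Rank of the highest-scoring end summit of each gene as a percent of the length of its own list, 1 panel per library (log axis, higher scores to the right; crosses mark genes with no end summit). Members can be ordered within a panel but not compared between panels, since the lists differ in length; Tlr4 is furthest to the right in each panel, and Tnf sits at 97.3% in the old HSC ABC panel.

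Among the cytokines Tnf, an early target of NF-kB (chromosome 17, 35199367 to 35202007, minus strand), had a summit within 1 kb of its start in all 3 libraries, but not at the same site. The young- and old-labelled lists had a summit at the same base, 35202142, 135 bases before the start (3.56, rank 20914 in the young-labelled list; 16.9, rank 9507 in the old-labelled list). The young-labelled list had another at 35201552, 455 bp into the gene (5.21, rank 13778). The ABC-labelled list had only the second site, at 35201440, with a score of 1.74 that placed it at rank 44161 of 45386, so it was absent from the equal-length list. Ltb, which encodes lymphotoxin beta and lies 3062 bp from Tnf, had a summit at base 35195905 in all 3 lists (4.93, 15.9 and 3.46 in the lists labelled young, old and ABC). Lta, on the other side, had none within 1 kb of an end, but the young- and old-labelled summits at 35202142 lay 1023 bp from it, just outside that limit. The old- and ABC-labelled lists also shared a site 8429 and 8444 bp past the upper end of Tnf, at 35210436 (5.78) and 35210451 (3.77), outside other protein-coding records.

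Il1b, whose product is released after cleavage by caspase 1 (chromosome 2, 129364569 to 129371164, minus strand), had no summit in its record or within 1 kb of it in any list. Its window held 1 site, past the end opposite the start, with a young-labelled summit at 129360769 (2.16, rank 30159, 3800 bp past the end) and an old-labelled one at 129360608 (5.05, rank 40378, 3961 bp past it). These were 10370 and 10531 bp downstream of the gene start. The nearest ABC-labelled summit lay 42504 bp from the record.

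Il6 (chromosome 5, 30013114 to 30019975, plus strand) had the emptiest window with any call at the start. Its single summit was at 30013249 in the old-labelled list (6.06), 135 bp downstream of the start. At rank 31875 it was among the lowest summits of the equal-length list. The nearest young-labelled and ABC-labelled summits lay 40014 and 53125 bp from the record ends.

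The upstream sequences of these 3 cytokine genes are set side by side because their starts were marked in 3, 0 and 1 libraries (RefSeq, GRCm38.p6: Tnf chr17:35202008-35202257, minus strand; Il1b chr2:129371140-129371389, minus strand; Il6 chr5:30012864-30013113, plus strand). Capitals mark TATAAA in Tnf and Il1b, and TGANTCA, the form bound by AP-1, followed by the NF-kB motif in Il6.
Tnf: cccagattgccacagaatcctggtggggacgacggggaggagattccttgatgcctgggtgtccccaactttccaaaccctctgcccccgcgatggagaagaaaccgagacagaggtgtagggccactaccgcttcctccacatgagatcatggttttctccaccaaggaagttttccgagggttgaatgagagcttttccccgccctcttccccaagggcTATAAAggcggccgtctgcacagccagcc
Il1b: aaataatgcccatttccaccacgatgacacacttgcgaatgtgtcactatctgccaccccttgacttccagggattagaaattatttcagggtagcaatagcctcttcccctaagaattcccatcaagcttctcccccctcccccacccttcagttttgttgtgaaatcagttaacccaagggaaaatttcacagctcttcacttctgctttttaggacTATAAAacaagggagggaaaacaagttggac
Il6: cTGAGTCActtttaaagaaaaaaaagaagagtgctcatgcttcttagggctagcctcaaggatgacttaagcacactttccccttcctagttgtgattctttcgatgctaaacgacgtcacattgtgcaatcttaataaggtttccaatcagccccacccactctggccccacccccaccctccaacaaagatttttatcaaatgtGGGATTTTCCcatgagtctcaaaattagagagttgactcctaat
TATAAA lay 29 to 24 bases before the start of Tnf and 31 to 26 bases before that of Il1b, and 11.6% of all upstream sequences held it on either strand. In Il6, TGANTCA lay 249 to 243 bases and the NF-kB motif 44 to 35 bases before the start; 6.13% of all upstream sequences held TGANTCA. Tnf had 10 CG dinucleotides, Il6 3 and Il1b 2. Over the 9 upstream sequences of the 8 members with a start in the table, the NF-kB motif was in those of Tlr2, Il6 and the first of Nlrp3, TATAAA was in those of Tnf, Il1b and Myd88, and GAGGAAGT, a form bound by PU.1, was in none, beside 2.23% of all. Matches of different motifs did not overlap. These matches describe the sequence only.

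Il10, the anti-inflammatory cytokine of the set (chromosome 1, 131019845 to 131024970), was flanked by summits in the old- and ABC-labelled libraries and by none in the young-labelled library, whose nearest summit was 32534 bp from an end. Past the upper end the old-labelled list had a summit at 131026002 (40.7, rank 2465) and the ABC-labelled list one at 131026006 (12.5, rank 3697). They lay 1032 and 1036 bp from the record, just outside the end window, and were the highest-scoring summits near any of the 4 cytokine genes in those lists. Before the lower end the old-labelled summit at 131019092 (9.50) was 753 bp away and the ABC-labelled one at 131018707 (1.85) 1138 bp away, so only the first counted as an end summit. Both lists shared another site further out before the lower end, at 131010702 (old HSC, 2.42) and 131010472 (old HSC ABC, 3.28). The start of Il10 is not in the promoter table used.

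**Figure D3:**
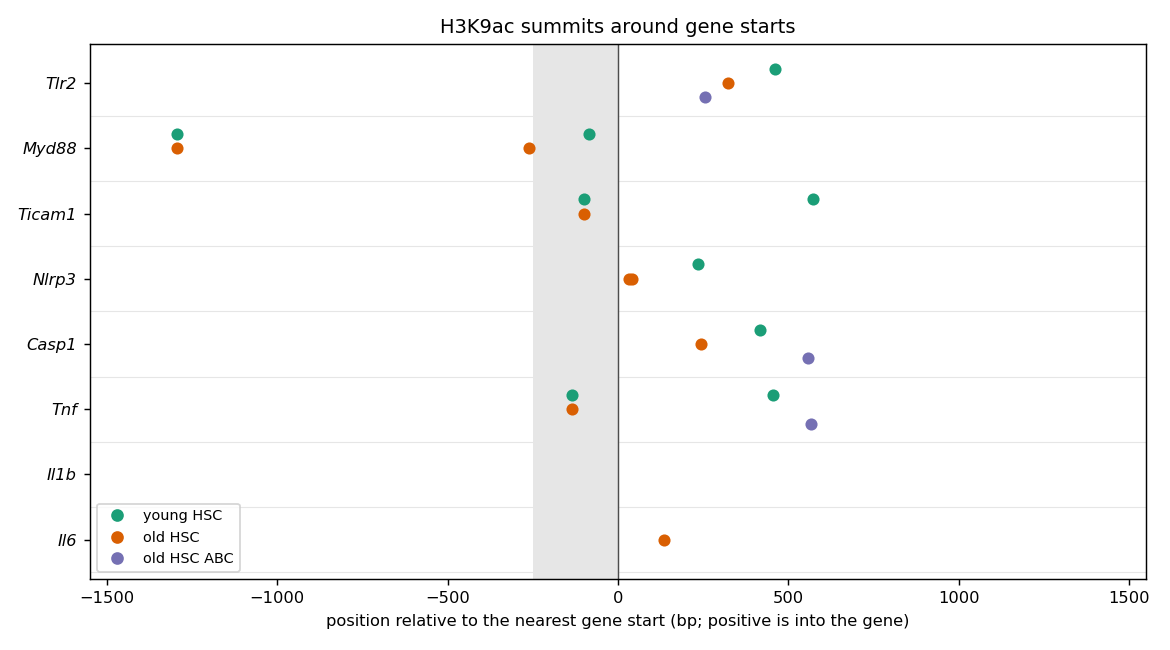
Position of each summit relative to the nearest gene start for the 8 members with a start in the promoter table (horizontal axis in bp, positive into the gene; grey marks the 250 bases before the start; 1 row per gene and 1 colour per library). Tlr2 and Casp1 have summits of all 3 libraries just downstream of the start, the ABC summit of Tnf is at 567 bp, and Il1b has none in the plotted range.

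The library labelled old HSC was set beside that labelled young HSC, a comparison of ages by the labels but not by the names inside the lists. Il6 and Il10 had an end summit called in the library labelled old HSC and not in that labelled young HSC, 2 of 10 members beside 16.6% of all genes, and no member had the reverse, beside 1.59%. Equal-length lists gave the same counts of 2 and 0, beside 6.90% and 3.28%. By gene start, counted within 1 kb over the 17492 genes that have one in the table, 1 of 8 members (Il6) was marked for old HSC alone and 0 for young HSC alone, beside 13.5% and 1.11%. The 7 members with a young-labelled end summit all had an old-labelled one too. At as-deposited length the members' share on the old-labelled side was close to that of all genes.

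Next, the library labelled old HSC ABC was set beside that labelled old HSC, by the labels the same age without ABC. By the names inside the lists, ABC belongs to the other library of this pair. Myd88, Ticam1, Nlrp3, Il6 and Il10 had an end summit called in the library labelled old HSC and not in that labelled old HSC ABC, 5 of 10 members beside 15.6% of all genes. No member had the reverse, beside 2.23%. In equal-length lists Tnf joined them, giving 6 and 0 members beside 8.22% and 3.20%. By gene start 4 of 8 members (Myd88, Ticam1, Nlrp3 and Il6) and 0 were on the old-labelled and ABC-labelled sides, beside 13.2% and 1.64%. With the window widened to 2 kb of a record end the count fell to 2 (Ticam1 and Il6), beside 16.1%, and 0 beside 1.19%, because ABC-labelled summits lay 1036 bp from Il10 and 1308 and 1569 bp from the ends of Myd88 and Nlrp3 that are opposite their starts.

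The library labelled old HSC ABC was also set beside that labelled young HSC. Myd88, Ticam1 and Nlrp3 had an end summit called in the young-labelled library alone, 3 of 10 members beside 4.78% of all genes, and no member had one in the ABC-labelled library alone, beside 6.43%. Equal-length lists gave 4 (with Tnf) and 0, beside 6.09% and 4.70%, and gene starts gave 3 of 8 and 0, beside 4.26% and 5.02%. Within 2 kb 1 member was on each side, Ticam1 on the young-labelled and Il10 on the ABC-labelled, beside 4.29% and 6.92%. The young-labelled end summits of Myd88 (3.26) and Nlrp3 (3.30) were weak. At scores of at least 5 both were lost, and the young-labelled side held 2 members, Ticam1 and Tnf. No share of all genes was computed for that threshold. In this and the preceding comparison the Myd88 summits cannot be assigned to Myd88 apart from Acaa1a. These 3 comparisons share libraries, so the ABC-labelled list enters both counts in which Myd88, Ticam1 and Nlrp3 appear.

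Joining summits of the 3 lists that lay within 500 bp gave 46 sites in the member windows. Of these, 6 were present in all 3 libraries (13.0%, 95% Clopper-Pearson interval 4.94 to 26.3, counting error only), beside 15.2% of the sites in the windows of all genes. The intervals treat sites as independent, although many lie in the same window, so they are no test against all genes. The 6 were the sites near the starts of Tlr2 and Casp1, that near the lower record end of Tlr4 and those of the neighbours Oxsr1, Casp4 and Ltb. A further 7 sites were shared by the young- and old-labelled libraries alone (15.2%, 6.34 to 28.9, beside 6.48%), 9 by the old- and ABC-labelled (19.6%, 9.36 to 33.9, beside 11.9%) and 1 by the young- and ABC-labelled, that inside Tnf (2.17%, 0.0550 to 11.5, beside 1.57%). The old-labelled library alone held 19 sites (41.3%, 27.0 to 56.8, beside 52.2%), the young-labelled library alone 3 (6.52%, 1.37 to 17.9, beside 4.37%) and the ABC-labelled library alone 1 (2.17%, 0.0550 to 11.5, beside 8.27%).

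A list of 58 further genes of the pathway was counted by the same rule: end summits were found at 38 of them for young HSC, 48 for old HSC and 39 for old HSC ABC, and at 37 in all 3 libraries, beside 41.9%, 56.9%, 43.6% and 36.3% of all genes. Of the receptors, Tlr8, Tlr11 and Tlr13 had none in any library, nor did the sensor genes Nlrp1b and Aim2, the cytokine genes Il1a and Lta, the receptor gene Il1r1 or its antagonist gene Il1rn, which brought the genes without an end summit to 9. Some of these had summits inside their records: Il1r1 (3, 11 and 6 for young, old and ABC), Aim2 (1, 7 and 1), Nlrp1b (0, 6 and 1) and Il1rn (1, 1 and 0). The rest had none there. Among the genes that act downstream of Myd88, end summits were found in all 3 libraries at the kinase gene Irak4 (17.2, 71.0 and 33.2 in the lists labelled young, old and ABC), the ubiquitin ligase gene Traf6 (18.0, 46.5 and 6.52) and the kinase gene Map3k7 (9.83, 33.7 and 6.26). The same held for Pycard, which links Nlrp3 to caspase 1 (16.3, 33.9 and 10.4), and Gsdmd, the pore-forming caspase substrate (27.1, 53.9 and 23.6).

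Of the further genes, 11 of 58 had an end summit called for old HSC and not for young HSC and 1 the reverse, beside 16.6% and 1.59% of all genes, so the share on the old-labelled side was near that of all genes. In equal-length lists these were 8 and 1, beside 6.90% and 3.28%: Tlr1 (10.4), Tlr5, the flagellin receptor (8.87), Tlr9, the receptor for unmethylated DNA (6.78), Sarm1 (6.65), Irf3 (7.44), Nek7, a partner of Nlrp3 (8.83), Tnfrsf1b, a Tnf receptor (22.2), and Ptgs2 (17.0) on the old-labelled side, and Tlr6 (4.49) on the other. The nearest young-labelled summit was only just outside the window for Tlr1 (1015 bp) and Irf3 (1061 bp), and so was the nearest ABC-labelled summit for Irf3 (1045 bp). Against the ABC-labelled library 9 of the 58 were on the old-labelled side and 0 on the other (6 and 0 in equal-length lists, beside 8.22% and 3.20%; all 6, Irf3 among them, are genes just named). For all genes the share on the old-labelled side of this comparison was the 15.6% given above. Tnfrsf1b and Ptgs2 had ABC-labelled end summits (6.34 and 4.60) and no young-labelled one.

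**Figure D4:**
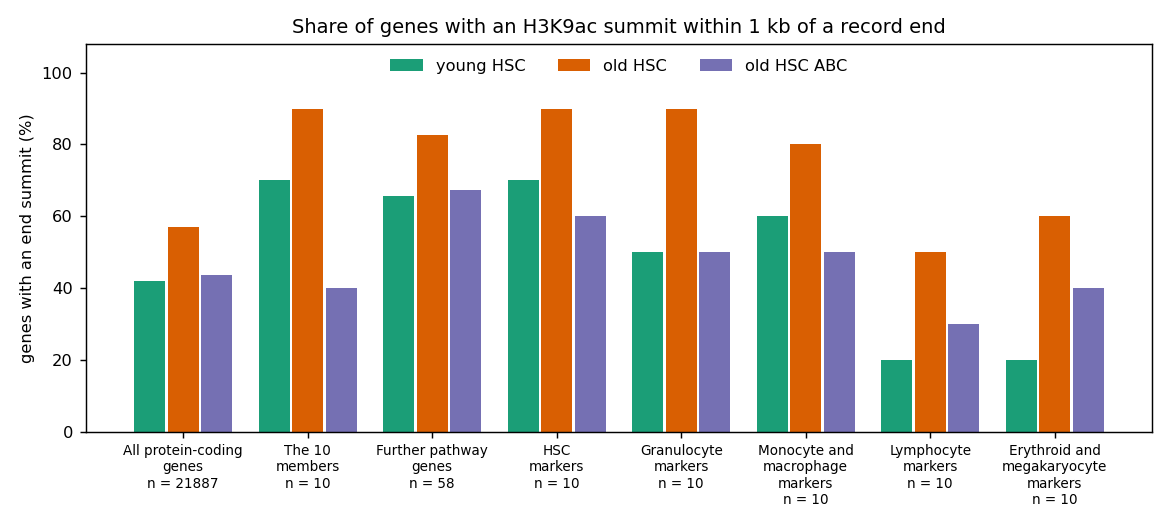
Percent of genes with an end summit in each library (bars from 0), for all protein-coding genes, the 10 genes described, the further pathway genes and 5 marker lists, with the number of genes under each. The old HSC bar is the tallest in each group. Of the 10 genes described, 7, 9 and 4 have an end summit in the young, old and ABC libraries.

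Several of the 10 genes are expressed by mature myeloid cells, so marker genes were counted beside them. End summits were called at 41.9%, 56.9% and 43.6% of all genes in the libraries labelled young, old and ABC. Of 10 granulocyte markers, 5, 9 and 5 had an end summit called in the lists labelled young, old and ABC. S100a8 scored 65.0, 508 and 23.2 in those lists and Ngp 20.8, 141 and 2.10, whereas Camp (14.7 and 96.7) had none in the ABC-labelled list, and Retnlg (48.2) and Elane (8.57) only had one in the old-labelled list. Ltf had end summits for old HSC (6.68) and old HSC ABC (3.77) and none for young HSC, and Mpo had one in each list (2.92, 10.5 and 3.27). Monocyte and macrophage markers stood at 6, 8 and 5 of 10, lymphocyte markers at 2, 5 and 3, and erythroid and megakaryocyte markers at 2, 6 and 4. Of 10 HSC markers 7, 9 and 6 had an end summit. Mecom had none in any library, and Kit (3.01 and 18.4) had none in the ABC-labelled one. Slamf1 (8.22) and Hlf (3.04) had one in the old-labelled library only (Hlf at rank 76989, outside the equal-length list). Summits inside these records numbered 5, 23 and 10 for young, old and ABC at Mecom and 1, 11 and 3 at Kit. They numbered 0, 3 and 1 at Slamf1 and 2, 7 and 2 at Hlf. In equal-length lists the counts for young, old and ABC were 5, 9 and 4 for granulocyte, 6, 6 and 5 for monocyte and macrophage, 2, 4 and 2 for lymphocyte, 2, 3 and 3 for erythroid and megakaryocyte and 7, 7 and 6 for HSC markers. For these counts no share of all genes was computed. Markers with an end summit for old HSC and not young HSC then numbered 4 in the granulocyte list, 2 in the lymphocyte list and 1 in each of the others. Each list has 10 genes, and the share of all genes by this rule was 6.90%, so 1 of 10 is near it. Ly6g of the granulocyte list and Itgam of the monocyte list had no end summit in any library. Itgam had 2, 6 and 1 summits inside its record for young, old and ABC. In sorted cells taken in bulk, fewer cells carrying a mark and less mark per cell cannot be told apart. The part of other cell types in the calls at Myd88, Ticam1, Nlrp3, Il6 and Il10 was not tested.

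The 20 kb limit of the windows had summits close to it on the outer side. The outermost counted summits lay 13736, 17582 and 17138 bp from a member's record in the lists labelled young, old and ABC, and the nearest uncounted ones 20548 (near Tnf, 2.71), 20119 (near Myd88, 3.49) and 20549 bp away (near Tnf, 2.51).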

How the data were processed

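H3K9ac CUT&Tag summits of sorted mouse HSCs were analysed, 1 library for each of 3 groups. The build was mm10 and the tools were MACS2, BWA, edgeR and Picard, per the submitters' processing notes. What each did, with its version and settings, was not given in the sources used here, nor was any control library. Each deposited list gives 1-base summits with a score, read as the −log10 q-value of MACS2 because every list starts just above 1.30, the −log10 of 0.05. The depth of no library is known, so no floor is given. Exons, introns and UTRs were not analysed here.

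Gene records were the 21887 protein-coding records of the autosomes, X and Y in the RefSeq table of GRCm38.p6 (the coordinates of mm10). Starts and strands of 17492 genes, and 8 of the 10 members, came from the RefSeq promoter table of the same build. Record ends were used for the main counts because they exist for every member. Tied scores share the better rank. Counting was tested on planted summits with known answers.

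The members and all lists were chosen with earlier results of these data known. The members were all described; further pathway genes were named where the libraries differed in the deposited lists and also in those of equal length, or to spell out a short count. Irak4, Traf6, Map3k7, Pycard, Gsdmd and the markers given with scores were picked after their values were seen. The alternatives were scores of at least 5 or 10, lists of equal length, summits merged within 500 bp, windows of 10 or 50 kb or the record alone, ends within 500 bp, 2 kb or 5 kb, gene starts, and linkage at 250 or 1000 bp. Python 3.11.15, pandas 2.3.3, numpy 2.4.6, scipy 1.17.1 and matplotlib 3.10.9 were used.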

Additional observations from a re-analysis of the deposited data

How the results depend on the processing

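No comparison reversed under the alternatives run, although ABC against young came to 1 member on each side at scores of at least 10 and within 2 kb. Of 75 recomputed counts, 47 stayed within 1.5 times of the reported ones, although a count that stayed can hold other members. No paired analysis was possible because each group had 1 library; for the same reason no library could be left out. Window summits in the lists labelled young, old and ABC were 9, 24 and 7 at scores of at least 5, 4, 14 and 5 at scores of at least 10, 36, 85 and 40 within 50 kb, and 6, 12 and 6 in the records alone; the old-labelled count was 21 in equal-length lists. Shares of all genes were computed only for the main rule, equal-length lists, gene starts and, against the ABC-labelled library, ends within 2 kb. The other member counts given here therefore cannot be set against all genes. Members with an end summit called in the old- but not the young-labelled library numbered 4 at scores of at least 5, where Myd88 and Nlrp3 joined Il6 and Il10. At scores of at least 10 they numbered 3 and were Ticam1, Casp1 and Tnf, so neither Il6 nor Il10 remained. The count was 1 with ends within 500 bp and by gene starts. Members on the old-labelled side against ABC numbered 3 at scores of at least 10, 2 within 2 kb and 3 within 5 kb, with 1 on the ABC-labelled side within 500 bp (Tlr2, whose ABC-labelled summit was 472 bp from the record end and whose old-labelled one was 538 bp). The 3 at scores of at least 10 were Tlr2, Ticam1 and Tnf, so only Ticam1 remained of the members named for the main rule. Against young, 1 member was on the ABC-labelled side at scores of at least 10, within 500 bp, within 2 kb and within 5 kb, and the young-labelled side held 1, 5 and 1 in the first 3 of these. Sites in all 3 libraries numbered 3 at scores of at least 10. Scores of 1 list do not match those of another, so a score threshold removes unequal parts of the lists; other causes of these shifts were not tested. Of the 78 recomputed counts for single members 65 stayed within 1.5 times. With depth unknown, a site missing from a list was not called there, which does not show that the mark was absent.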

Other observations

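Summits of different lists fell on exactly the same base at several of these loci: at Ltb in all 3 lists (35195905), before the starts of Tnf (35202142) and Ticam1 (56276868) in the young- and old-labelled lists, and at Fem1a in the old- and ABC-labelled lists (56256130). Of the 13 young-labelled summits in the member windows that had an old-labelled summit within 500 bp, 3 shared its base (23.1%, 95% Clopper-Pearson interval 5.04 to 53.8, counting error only), beside 6.55% of 25729 such summits over the whole list (6.25 to 6.86). For ABC-labelled against old-labelled summits it was 2 of 15 in the windows and 5.88% of 32840 over the list.

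Il1b and the genes of related cytokines and receptors, which do not all lie near it, were also set side by side. Il1b, Il1a, Il1rn and Il1r1 had no end summit in any library (Il1r1 had 3, 11 and 6 summits inside its record for young, old and ABC). Il1rap, the accessory chain of the receptor, had one in all 3 (15.6, 32.2 and 10.1 in the lists labelled young, old and ABC). So did Il18 (4.29, 23.7 and 11.8). The nearest summits to the ends of Il1a lay at 1866, 2791 and 2788 bp. This grouping was chosen after the values were seen.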
